A study of Rattus norvegicus with 8 samples.

Results

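The genes described here are 31 rat genes of glycolysis and of the cellular response to low oxygen. They were taken by symbol, and a gene was counted as measured where an array probe carried a RefSeq transcript of that symbol. The array had probes for 16581 named genes, and 30 of the 31 were among them: Egln1 had no probe so named. The list has 23 genes on the glycolysis side (2 glucose transporters, 14 glycolytic enzymes, 4 lactate enzymes and carriers, 3 regulators of flux) and 8 on the side of hypoxia-inducible factor (HIF). Expression was measured in cells of newborn (postnatal day 0) Lister hooded rat retinas. These were electroporated outside the animal with 25 V pulses of 50 ms, either with a control plasmid or to overexpress Klf4, a zinc-finger transcription factor. Explants were kept in culture for 39 hours in both groups, and only GFP-positive cells, the transfected ones, were sorted and used for RNA. There were 4 arrays labelled control and 4 labelled Klf4, numbered 2 to 5 in each group. The labels leave out the promoter that drives the plasmids and whether each array had its own animals or electroporation. The p-values therefore measure the spread among these 8 arrays, and that spread may be technical.

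Glycolysis splits glucose into pyruvate and yields ATP without oxygen. Glucose enters through carriers of the Slc2a family, is phosphorylated and trapped by hexokinase, and passes through a chain of cytosolic enzymes that ends with pyruvate kinase. Pyruvate then either enters the mitochondrion, which pyruvate dehydrogenase kinases such as Pdk1 hold back, or becomes lactate, which monocarboxylate carriers export. The retina is known for converting much of its glucose to lactate even when oxygen is present. HIF is a pair of subunits: the alpha subunit is hydroxylated by prolyl hydroxylases of the Egln family and degraded while oxygen is plentiful, and is stabilised when oxygen falls. It then binds a short core sequence, A or G followed by CGTG, near its target genes, among them Vegfa, Bnip3, Egln3 and many genes of glycolysis. KLF proteins bind GC-rich and CACCC sequences.

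The 250 bases before the annotated starts are shown for 3 members, chosen to set the gene that rose (Slc2a1) beside a kinase whose 4 probes were all higher on average (Pdk1) and beside a classical HIF target whose signal hardly differed (Ldha). The sequences are those of RefSeq, assembly GRCr8, 5′ to 3′ on the gene's strand (plus for all 3). They lie at chr5:138002272-138002521 for Slc2a1, chr3:77113264-77113513 for Pdk1 and chr1:106507842-106508091 for Ldha. Capitals mark every match, on either strand, to the HIF core (ACGTG or GCGTG, read as CACGT or CACGC on the other strand) and to CACCC (read as GGGTG).
Slc2a1: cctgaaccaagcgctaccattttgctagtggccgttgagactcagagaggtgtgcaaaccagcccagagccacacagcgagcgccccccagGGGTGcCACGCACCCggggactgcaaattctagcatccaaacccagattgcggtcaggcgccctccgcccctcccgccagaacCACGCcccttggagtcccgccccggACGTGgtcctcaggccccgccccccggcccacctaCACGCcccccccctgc
Pdk1: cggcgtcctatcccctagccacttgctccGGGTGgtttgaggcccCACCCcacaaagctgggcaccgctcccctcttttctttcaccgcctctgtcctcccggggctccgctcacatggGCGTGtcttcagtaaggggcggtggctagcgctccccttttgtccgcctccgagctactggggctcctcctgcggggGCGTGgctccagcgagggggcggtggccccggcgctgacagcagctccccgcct
Ldha: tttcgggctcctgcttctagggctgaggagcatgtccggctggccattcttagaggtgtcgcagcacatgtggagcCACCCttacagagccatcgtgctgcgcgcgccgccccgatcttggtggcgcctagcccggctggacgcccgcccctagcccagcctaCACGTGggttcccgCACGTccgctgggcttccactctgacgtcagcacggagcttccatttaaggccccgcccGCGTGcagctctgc
Counting back from the start, the Slc2a1 window held 4 HIF cores, with first bases at -153, -76, -51 and -16, and 2 CACCC matches at -159 and -149. The CACCC match at -149 shares its first base with the last base of the core at -153. The Pdk1 window held 2 cores (-131 and -54) and 2 CACCC matches (-221 and -205). The Ldha window held 4 cores (-87, -86, -73 and -14), the first pair of which are the 2 strands of one CACGTG, and 1 CACCC match (-174). Promoter sequences were at hand for 28 of the 31 members, with 33 start sites. At least 1 core was present in 20 of these 33 windows (60.6%) and in 36.7% of 33469 rat promoters of the same length. CACCC was present in 21 of the 33 (63.6%) and in 49.2% of all. These matches are descriptions of the letters only.

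Signals are given below as normalised log2 signals: log2 of the scanner's signal less the array's own 75th percentile, so that 0 is that percentile. Differences are Klf4 minus control on this log2 scale. The 75th percentile itself ran from 2354 to 5297 signal units, and 72.1% to 86.5% of gene spots per array were well above background. The arrays numbered 5 came from a second scan, the scanner software marked those numbered 4 as out of its quality range, and controls and Klf4 arrays occupied different slide columns, so column and group cannot be told apart. The probe for Klf4 itself differed by 0.18 between the groups, less than its spread (SE 0.47, limma adjusted p = 0.886). Whether it reads the inserted sequence is unknown here and the labels are thus unchecked by it, and "Klf4 arrays" below means the arrays so labelled. All 10 retinal progenitor markers and all 8 photoreceptor precursor markers of the lists used were well above background on all 8 arrays. In sorted cells measured in bulk, fewer cells of a type and less RNA per cell cannot be told apart.

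Of the 30 measured members, 1 rose and none fell. Slc2a1, the glucose transporter GLUT1, was about 3-fold higher on the Klf4 arrays, and the other 29 did not pass an adjusted p of 0.05 in limma. Among all 31068 genes and unnamed probes tested, 2.99% passed, 2.38% as higher and 0.615% as lower. Thus 1 of 30 members is a share near the background. At an unadjusted p under 0.05 there were 6 of the 30 members, and 14.2% of all features. All 55 probes of the 30 members were well above background on all 8 arrays, so the filter on dim probes removed none. The median difference over the 30 was -0.04, with 13 above 0 and 17 below, a split that moves with the scaling. The median over all features tested was -0.16, with 74.8% below 0, and 19 of the 30 members lay above it. On 9 members the control and Klf4 arrays did not overlap, in 5 with the Klf4 arrays higher and in 4 lower, where 12.7% of all features did not overlap (4.48% with the Klf4 arrays higher and 8.23% lower). For 7 of the 30 the arrays numbered 5 were the lowest of their group in both groups, as for 22.0% of all features.

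**Figure D1:**
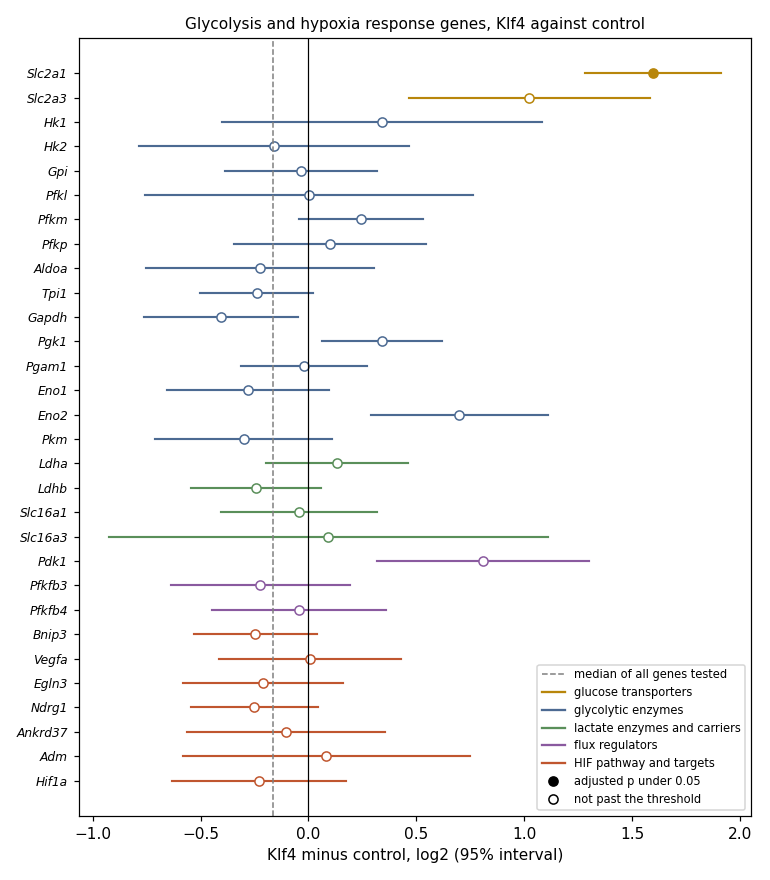
Difference between Klf4 and control arrays (4 each) for the 30 measured members, as Klf4 minus control on the log2 scale. Points are estimates of the limma fit, bars 95% intervals, colours the members' roles, and the dashed line the median of all features tested (-0.16); Slc2a1, the filled point at 1.60, is the only one past the threshold, with Slc2a3 (1.02), Pdk1 (0.81) and Eno2 (0.70) next.

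Glucose carriers stood furthest from 0. Slc2a1, the carrier of the basal glucose supply in many tissues, read 0.59, 0.89, 0.63 and 1.02 on control replicates 2 to 5, and 2.29, 2.31, 2.47 and 2.44 on Klf4 replicates 2 to 5. Every Klf4 array was over 1 log2 unit above every control. The difference was 1.60 (SE 0.14, 3.02-fold, limma adjusted p = 0.00077), measured by 1 probe. It was 1.65 within the first scan and 1.43 between the 2 arrays of the second. Of the 739 features that rose, 469 rose at least as much, Slc2a1 included. Slc2a3, the neuronal carrier GLUT3, read -0.73, -0.18, -0.62 and -1.44 on the controls, and 0.31, 0.23, 0.27 and 0.32 on the Klf4 arrays. The Klf4 arrays were all higher and close together, while control replicate 5 lay well below the other controls. The difference was 1.02 (SE 0.24, 95% interval 0.47 to 1.58) and did not pass the threshold (limma adjusted p = 0.0719). Its second, dimmer probe differed by 0.48 and its groups overlapped.

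Slc2a1 is also abundant in endothelium and, in some species, in red blood cells. Of the 8 endothelial markers 5 were tested: Tek, an angiopoietin receptor, rose by 2.29 (limma adjusted p = 0.00568), and Esam passed as higher but on the controls its probe was never well above background. The other 3 did not pass, at -0.07 for Kdr, 0.04 for Vwf and -0.11 for Cdh5. The summed linear signal of all 8, relative to the array's 75th percentile, was 33.1 to 37.5 on the controls and 30.2 to 44.7 on the Klf4 arrays, which overlap. Kdr makes up most of that sum, as its mean was 5.06 on the controls and 4.99 on the Klf4 arrays. Tek, at -4.23 and -1.94, adds little, so the sum could hardly register its rise. Of the red blood cell list, the beta-globin gene Hbb was not well above background on any array, and the summed signal of its 3 genes with a probe was 0.0753 to 0.0964 on the controls and 0.0746 to 0.0916 on the Klf4 arrays. For pericytes and fibroblasts the sum was 0.826 to 1.10 on the controls and 1.99 to 2.62 on the Klf4 arrays. That sum is mostly Col1a1, whose mean was -0.22 on the controls and 1.05 on the Klf4 arrays. Of the 3 tested genes of 6 listed, Col1a1 (1.27) and Cspg4 (1.53) passed as higher while Pdgfrb was at -0.96 and did not pass. What part these cells have in the Slc2a1 signal was not tested.

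**Figure D2:**
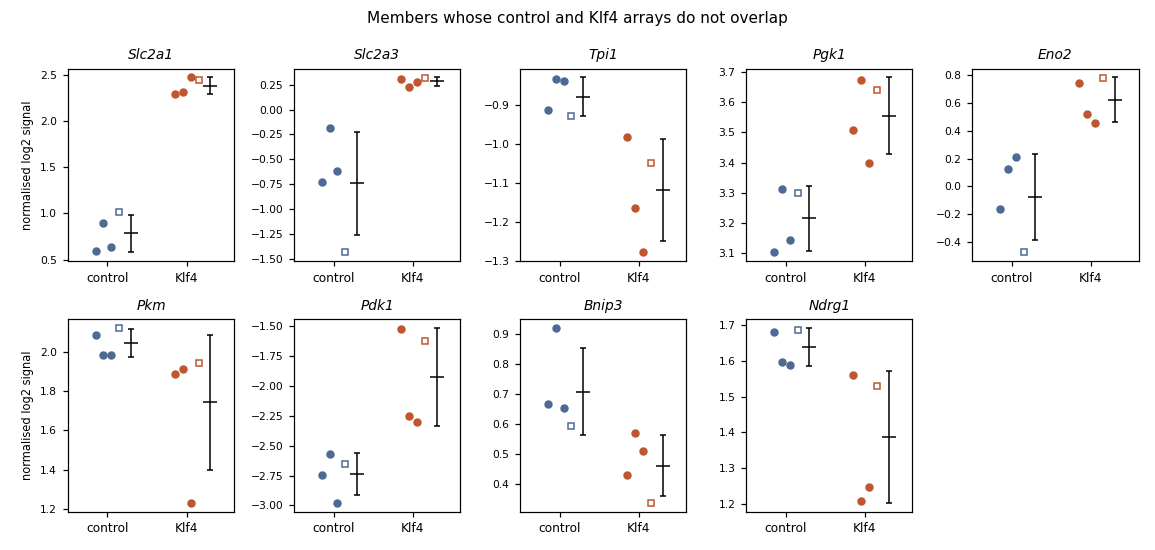
Normalised log2 signal on each array for the 9 members whose control (blue) and Klf4 (orange) arrays do not overlap; each panel has its own vertical scale, open squares are the arrays numbered 5 (second scan), and black marks are the group mean ± SD (n = 4). The gap between groups is widest for Slc2a1 (means 0.78 and 2.38), while for Slc2a3 and Pkm 1 array lies far from its group (control replicate 5 at -1.44, Klf4 replicate 4 at 1.23).

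The 14 glycolytic enzymes did not move as a block. None passed the threshold, their median difference was -0.03, and they ran from -0.41 (Gapdh) to 0.70 (Eno2). In limma 3 of the 14 had an unadjusted p under 0.05, as had 14.2% of all features. The early steps, which spend ATP, showed no groups that did not overlap. Hexokinases, which trap glucose as its phosphate, differed by 0.34 for Hk1 (95% interval -0.40 to 1.08) and -0.16 for Hk2 (-0.79 to 0.47). Hk2, the inducible form, read -3.46, -3.77, -3.41 and -4.36 on the controls and -3.52, -3.60, -4.23 and -4.29 on the Klf4 arrays. The groups overlapped throughout, and the second-scan array was the lowest of its group in both. Glucose phosphate isomerase (Gpi) differed by -0.04. Phosphofructokinase, the committed step, differed by 0.00 for the liver subunit Pfkl, 0.24 for the muscle subunit Pfkm and 0.10 for the platelet subunit Pfkp. Aldolase (Aldoa), which splits the sugar, differed by -0.22.

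The later steps held both signs. Triose phosphate isomerase (Tpi1) read -0.91, -0.83, -0.84 and -0.93 on the controls and -0.98, -1.16, -1.28 and -1.05 on the Klf4 arrays. The Klf4 arrays were all lower by a small margin, a difference of -0.24 (SE 0.11, limma adjusted p = 0.399). Gapdh, which oxidises the triose and is often used as a reference gene, read 2.74, 3.01, 2.93 and 3.23 on the controls and 2.38, 2.82, 2.46 and 2.63 on the Klf4 arrays. Only Klf4 replicate 3 lay within the control range. The difference was -0.41 (SE 0.16, limma adjusted p = 0.276). All 8 Gapdh probes were lower on average, by -0.53 to -0.30, and 5 of them had groups that did not overlap. The probes read the same RNA and are not replicates, and Gapdh has processed copies in the genome that a probe may also read.

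Phosphoglycerate kinase (Pgk1), the first step that returns ATP, went the other way. It read 3.10, 3.31, 3.14 and 3.30 on the controls and 3.51, 3.67, 3.40 and 3.64 on the Klf4 arrays. Every Klf4 array was above every control, and the difference was 0.34 within either scan (SE 0.12, limma adjusted p = 0.238). Phosphoglycerate mutase (Pgam1) differed by -0.02.

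The enolases, which make phosphoenolpyruvate, differed in sign. Eno1, the form found in most cells, differed by -0.28, and its 3 probes lay between -0.48 and -0.28. Eno2, the neuronal form, read -0.16, 0.13, 0.21 and -0.47 on the controls and 0.74, 0.52, 0.45 and 0.78 on the Klf4 arrays. The Klf4 arrays were all higher, by 0.70 (SE 0.18, limma adjusted p = 0.0946). The other Eno2 probe, which is dimmer, had the opposite sign at -0.26. That sign rests on Klf4 replicate 4, which read -2.93 and was marked out of quality range. The other Klf4 arrays read -0.91, -1.22 and -1.12, against -1.19, -1.28, -1.20 and -1.47 on the controls. The mean of both probes differed by 0.22, and the Eno2 value given is that of its brighter probe. Pyruvate kinase (Pkm), the last step, read 2.09, 1.99, 1.98 and 2.12 on the controls and 1.89, 1.91, 1.23 and 1.94 on the Klf4 arrays. The Klf4 arrays were all lower, Klf4 replicate 4 by far the most. The difference was -0.30 (SE 0.18, limma adjusted p = 0.502), and -0.13 without that array. All 4 Pkm probes were lower on average, by -0.42 to -0.30, but all 4 were lowest on that same array. Only 1 of the 4 had groups that did not overlap. The probes were not assigned to a splice form of Pkm.

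Photoreceptor precursors and dividing progenitors are cells of this tissue in which these enzymes are active. The 8 photoreceptor precursor markers were all below the median of all features, and Rxrg (-0.79) and Thrb (-0.67) passed as lower. Their summed signal was 57.1 to 78.8 on the controls and 36.5 to 68.8 on the Klf4 arrays. Most of it is Otx2, whose mean was 5.66 on the controls and 5.12 on the Klf4 arrays. All 11 tested genes of the S phase list were also below the median of all features, none past the threshold, with a summed signal of 15.5 to 27.5 on the controls and 11.3 to 16.7 on the Klf4 arrays. Of the 10 retinal progenitor markers none passed, 5 lay above 0 and 5 below, and their median difference was -0.02. Their summed signal overlapped, at 24.3 to 34.5 on the controls and 26.7 to 29.7 on the Klf4 arrays. What part these cells have in the enzyme signals was not tested.

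**Figure D3:**
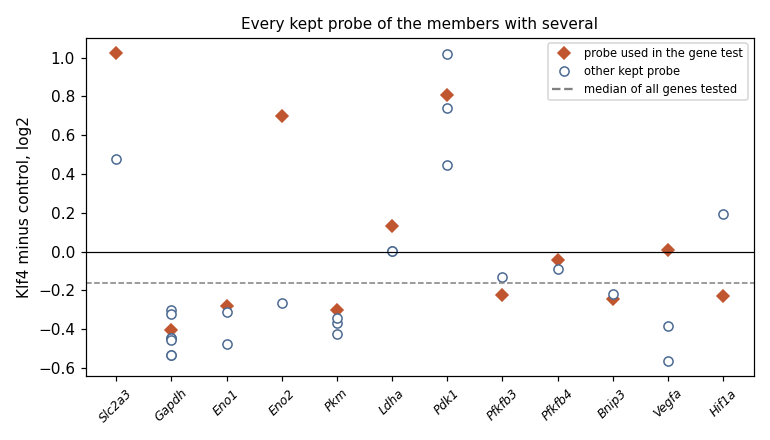
Difference between Klf4 and control arrays (log2) for every probe of the 12 members with more than 1 probe. Diamonds are the probe used in the gene's test, circles the others, and the dashed line the median of all features tested (-0.16). All 8 Gapdh and all 4 Pkm probes lie below 0, all 4 Pdk1 probes above 0, and the Eno2, Vegfa and Hif1a probes fall on both sides. For the dimmer Eno2, Vegfa and Hif1a probes and for all 4 Pkm probes, Klf4 replicate 4 lies far from the other Klf4 arrays. The same holds for the Pdk1 probes at 0.45 and 1.02 and the Eno1 probe at -0.48.

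Lactate enzymes and carriers showed no difference past the threshold, and none of the 4 had groups that did not overlap. Ldha, the lactate dehydrogenase subunit that favours pyruvate to lactate, read 3.99, 4.06, 4.17 and 3.72 on the controls and 4.24, 3.93, 4.25 and 4.05 on the Klf4 arrays. The groups overlapped, with a difference of 0.13 (95% interval -0.19 to 0.46), and its 2 other probes both differed by 0.00. Ldhb, the subunit that favours the reverse reaction, read 0.18, 0.41, 0.35 and 0.59 on the controls and -0.01, 0.26, 0.12 and 0.19 on the Klf4 arrays. It differed by -0.24 (-0.54 to 0.06), with overlap. The lactate carriers Slc16a1 (MCT1) and Slc16a3 (MCT4) differed by -0.04 and 0.09. The interval for Slc16a3 was wide (-0.92 to 1.11), its control arrays spreading from -3.51 to -1.25.

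Of the 3 regulators of flux, Pdk1 stood apart. This kinase inactivates pyruvate dehydrogenase and is a known HIF target. It read -2.74, -2.57, -2.98 and -2.65 on the controls and -1.53, -2.25, -2.31 and -1.63 on the Klf4 arrays. Every Klf4 array was above every control, and Klf4 replicates 2 and 5 were the highest. The difference was 0.81 (SE 0.21, 95% interval 0.32 to 1.30) and did not pass the threshold (limma adjusted p = 0.106). All 4 Pdk1 probes were higher on average, by 0.45 to 1.02, and for 3 of them the groups did not overlap. On the probe at 0.45 Klf4 replicate 4, marked out of quality range, read -5.24, against -3.21, -3.55 and -3.09 on the other Klf4 arrays. On the probe at 1.02 that array read -3.59, against -4.46, -4.95 and -4.77. Neither of the enzymes that make and remove the sugar phosphate activating phosphofructokinase passed. Pfkfb3 read -1.81, -1.48, -1.83 and -2.22 on the controls and -2.10, -1.87, -2.29 and -1.96 on the Klf4 arrays, with overlap and a difference of -0.22. Pfkfb4 differed by -0.04.

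On the HIF side, 7 of 8 genes were measured, and none passed the threshold or had an unadjusted p under 0.05. The median difference was -0.21, against -0.16 for all features, and the range was narrow, from -0.25 (Ndrg1) to 0.08 (Adm). Hif1a, the oxygen-regulated subunit itself, read 3.00, 2.65, 2.76 and 2.85 on the controls and 2.36, 2.52, 3.04 and 2.43 on the Klf4 arrays. On 3 Klf4 arrays it was below all controls and on Klf4 replicate 4 it was above them, a difference of -0.23 (95% interval -0.63 to 0.17). Its other, dimmer probe differed by 0.20, but that sign rests on Klf4 replicate 4. That probe read -2.76, -2.90, -0.34 and -3.23 on Klf4 replicates 2 to 5, and -2.45, -2.12, -2.30 and -3.14 on the controls. The prolyl hydroxylase gene Egln3, a HIF target that feeds back on HIF, read -3.74, -3.61, -3.83 and -3.93 on the controls and -3.70, -3.86, -4.32 and -4.07 on the Klf4 arrays. It differed by -0.21 (-0.58 to 0.16), with overlap.

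Vegfa, the growth factor that draws vessels into the retina, read 0.43, 0.77, 0.47 and 0.46 on the controls and 0.62, 0.68, 0.06 and 0.80 on the Klf4 arrays. The groups overlapped and differed by 0.01 (-0.41 to 0.43). Its 2 other probes, both dimmer, differed by -0.38 and -0.56 and neither passed. Both were lowest on Klf4 replicate 4, at -4.04 and -5.77, far from the other Klf4 arrays (-2.53 to -2.18 and -4.52 to -4.28). Bnip3, a mitophagy receptor, read 0.67, 0.92, 0.66 and 0.59 on the controls and 0.43, 0.57, 0.51 and 0.34 on the Klf4 arrays. All Klf4 arrays were lower, by -0.25 (SE 0.12, limma adjusted p = 0.420), and its second probe differed by -0.22. Ndrg1, a stress-responsive gene induced in low oxygen, read 1.68, 1.60, 1.59 and 1.69 on the controls and 1.56, 1.21, 1.25 and 1.53 on the Klf4 arrays. These too were all lower, by -0.25 (SE 0.13, limma adjusted p = 0.428). Ankrd37 differed by -0.10, and Adm, the vasodilator peptide adrenomedullin, by 0.08 (-0.58 to 0.75).

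The rest of both pathways was read from longer lists. Of 47 other glycolysis and pyruvate genes 40 were tested, with a median difference of -0.04. Of these 40, 1 rose and none fell, a share near the 2.38% of all features that rose. The gene that rose was Pygl, a glycogen phosphorylase that frees glucose from glycogen. It read -1.49, -1.001, -1.33 and -1.23 on the controls and -0.51, -0.49, -0.74 and -0.53 on the Klf4 arrays, a difference of 0.70 (SE 0.14, limma adjusted p = 0.0389). No Klf4 array reached down to a control. The other pyruvate dehydrogenase kinases did not pass: Pdk2 differed by 0.03 and Pdk3 by -0.58.

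Of 57 other genes of the HIF system or known to respond to low oxygen, 46 were tested, 4 rose and none fell, with a median of -0.15, where 2.38% of all features rose. This list was chosen with earlier results of these data known, so its counts are descriptions and not a test. At an unadjusted p under 0.05 there were 13 of the 46, and 14.2% of all features. Most of these 13 were lower on the Klf4 arrays. Of the 46, 36 lay below 0 and 10 above, where 74.8% of all features lay below 0. The differences ran from -1.43 to 4.16. Of the dissociation and stress list, which holds genes that handling of cells can induce, 10 of 12 were tested and Atf3 rose by 2.62 (limma adjusted p = 0.00474). The other 9 did not pass. Of the 10, 7 lay above 0 and 3 below, among them Egr1 (-0.43) and Jun (-0.29). The list's summed signal was 11.2 to 13.9 on the controls and 9.93 to 18.3 on the Klf4 arrays. Ier2, with a mean of 2.56 on the controls, far outweighs Atf3 (-4.49) in that sum. The part of this list in the hypoxia genes was not tested. Anxa2, a calcium-dependent membrane-binding annexin, read -4.24, -2.65, -3.16 and -5.30 on the controls and 0.83, 0.50, -0.59 and 0.54 on the Klf4 arrays, a rise of 4.16 (SE 0.58, limma adjusted p = 0.00711). Loxl2, an enzyme that cross-links collagen, read -4.43, -4.08, -4.14 and -3.54 on the controls and -1.67, -2.09, -2.82 and -1.75 on the Klf4 arrays, a rise of 1.96 (SE 0.29, limma adjusted p = 0.00946). For neither gene did the groups overlap. Sdc4, a cell-surface proteoglycan, rose by 1.02 (limma adjusted p = 0.0412), and Pgf, a growth factor of the Vegfa family, by 0.72 (limma adjusted p = 0.0281). The core of the HIF system did not pass: Epas1, the other oxygen-regulated alpha subunit, differed by -0.06, its partner Arnt by -0.33, Vhl, which marks the alpha subunit for degradation, by -0.05, and Egln2 by -0.40. Egln2 read -2.56 on Klf4 replicate 4, against -1.16, -1.60 and -1.14 on the other Klf4 arrays.

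Slc2a1 kept its call under all 22 alternative ways of processing the arrays, with differences of 1.51 to 1.69 and limma adjusted p-values up to 0.00914. Slc2a3 passed under 8 of the 22, Pdk1 under 4, Eno2 under 3, and Pgk1, Hk1 and Pfkm under 1, which weights arrays by quality. No member passed as lower under any of the 22. Anxa2 and Loxl2 also passed under all 22, Pgf under 13, and Pygl and Sdc4 under 11 each. These last 3 lost their calls when any 1 of control replicates 2, 4 and 5 or of Klf4 replicates 2, 3 and 5 was left out (for Sdc4 also control replicate 3), at differences of 0.66 to 0.86 for Pgf, 0.62 to 0.79 for Pygl and 0.87 to 1.15 for Sdc4 over all alternatives and limma adjusted p-values up to 0.143, 0.161 and 0.167. Among the markers, Tek, Col1a1 and Atf3 passed under all 22, Cspg4 under 21, Rxrg under 11, the astrocyte marker S100b (3.70 higher) under 9 and Thrb under 5, and Esam under 12 of the 17 in which it could be tested. The S100b probe was well above background on only 2 of the 4 controls. The rest of the astrocyte list did not pass, at -0.44 for Gfap, -0.54 for Pdgfra, -0.18 for Pax2 and 0.10 for Aldh1l1.

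**Figure D4:**
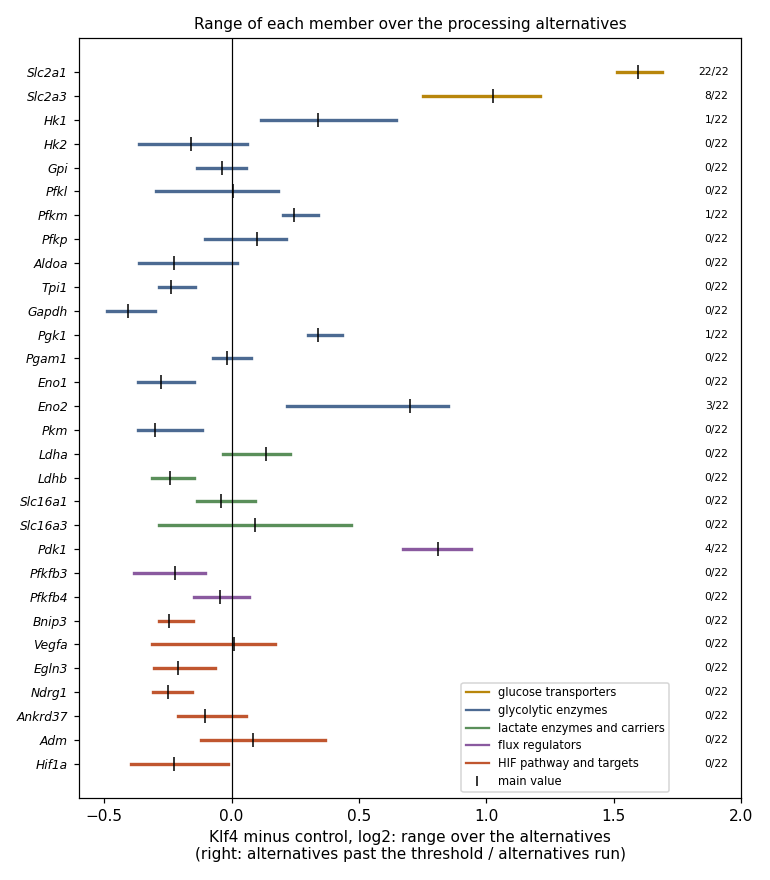
Range of each member's difference (Klf4 minus control, log2) over the 22 processing alternatives, with the reported value as a tick and, at the right, how many alternatives put the member past the threshold. Slc2a1 stays between 1.51 and 1.69 and passes in all 22, Slc2a3 in 8, and the ranges of 13 members, among them Ldha and Vegfa, cross 0.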

How the data were processed

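Per the file headers, Cy3-labelled RNA was read on Agilent 1-colour arrays of 1 slide with Feature Extraction 10.7.3.1, so precision is limited by the number of arrays, 4 per group. The deposited intensity values, processed and median spot signals, are those of that software; the processed ones are background-subtracted, with no scaling across arrays. Flags (unit other) deposited beside them mark control, dim, saturated and outlier spots. The authors also deposited log2 values (45735 rows), whose making the labels do not describe. Each column has the median 7.54 and correlates at 0.994 to 1.00 with its own array, so these are log2 values with no centring of genes, in the direction of the signals. They served as an alternative.

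Each array held 58717 gene spots for 45598 probes, and 0 spots were saturated. Outlier spots (324 to 421 per array) were left out, log2 processed signals of a probe's spots were averaged, and the array's 75th percentile over gene spots was subtracted. Probes well above background on at least 3 of 4 arrays of a group were kept, and of a gene's kept probes the one with the highest mean stood for it. Accessions were matched without versions to RefSeq symbols (GRCr8): 21109 probes had 1 symbol, 0 several and 24489 none. Probe coordinates are not printed, because the headers name another build. Groups were compared with limma 3.58.1 in R 4.3.3 (lmFit and eBayes, two-sided, no covariates, Benjamini-Hochberg over all 31068 features, threshold 0.05). "Rose" and "fell" mean past that threshold, and lists are described by counts and medians. The code was tested on simulated data. Figures were drawn with matplotlib 3.10.9.

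The members and lists were chosen with earlier results of these data known. Values on every array are given for members past the threshold, for members whose groups do not overlap, and for Slc2a1, Hk2, Pfkfb3, Pdk1, Ldha, Ldhb, Pkm, Gapdh, Vegfa, Bnip3, Egln3 and Hif1a; other members are given by their difference, and other pathway genes are named where past the threshold, with a few neighbours of the members by role.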

Additional observations from a re-analysis of the deposited data

Results flagged for a closer look

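In each group of 4 arrays, a member's highest or lowest array was compared with the rest by Dixon's ratio of gap to range. Of 60 such groups 4 stood out (6.67%), where chance gives about 1 in 20. Pfkl, a phosphofructokinase subunit, was far lower on control replicate 5 (-1.29) than on the other controls. Vegfa was highest on control replicate 3 (0.77). Pkm was lowest on Klf4 replicate 4 (1.23), 1 of the 2 arrays outside the scanner software's quality limits. Ankrd37 was lowest on Klf4 replicate 5 (-3.74). None of these 4 members passed the threshold.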

How the results depend on the processing

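The planned normexp correction of the mean spot signal was not run, because the files used here hold median spot signals; normexp on those, and the 75th percentile taken over probes, were added after seeing the data. Of all features, 739 rose and 191 fell as reported. The number that fell was 127 with the array median as centre, 96 with no filter on dim probes, 108 with the replicate number as a block, 354 with scan as a block, 1980 with array weights and 50 in the first scan alone; the number that rose was 1742 with array weights and 414 in the first scan alone. Leaving out 1 array gave 428 to 1175 that rose and 51 to 491 that fell, the highest without Klf4 replicate 4 and the lowest without Klf4 replicate 2. Members past the threshold as higher numbered 2 with normexp, 2 with scan as a block, 3 with the percentile over probes, 3 with quantile normalization, 3 with the array median, 3 with the authors' values and 7 with array weights (Slc2a1, Slc2a3, Hk1, Pfkm, Pgk1, Eno2 and Pdk1); leaving out 1 array gave 1 to 2, with 2 without control replicate 3 (Slc2a3 added) and without Klf4 replicate 4 (Pdk1 added). With the replicate number as a block Slc2a1 was the only member that passed (limma adjusted p = 0.00914), and the block changed no call of a member; of the other genes named, Pgf, Pygl, Sdc4, Rxrg, Thrb, Esam and S100b lost their calls under it. The shared numbers were not taken as pairs in the main fit, and the labels do not say whether they are. Deviations of same-numbered arrays from their group means correlated at 0.35, 0.23, 0.06 and 0.55 for numbers 2 to 5. For numbers 2, 3 and 5 each array correlated best with the same number in the other group. Control replicate 4 correlated best with Klf4 replicate 2, and Klf4 replicate 4 with control replicate 3. The median of all features moved from -0.16 to -0.06 with quantile normalization and -0.08 with the array median; relative to it, Slc2a1 lay 1.76 higher as reported. The HIF side's median was -0.064 with quantile normalization and -0.067 with the authors' values; the glycolysis side's went from -0.02 to 0.07 with either.

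Of 660 member values over the 22 alternatives, 580 kept sign and side of the threshold, 18 came to pass it and 62 changed sign, all of the latter in 13 members that never passed. Without both arrays numbered 4, Hk2 was 0.061, Aldoa 0.023, Gpi 0.037, Pgam1 0.0025, Slc16a1 0.017 and Pfkfb4 0.067. With the percentile over probes, Gpi was 0.058, Pgam1 0.075, Slc16a1 0.052 and Pfkfb4 0.050; with the array median they were 0.047, 0.064, 0.041 and 0.039. With quantile normalization Gpi was 0.019, Pgam1 0.028, Slc16a1 0.091, Pfkfb4 0.020 and Ankrd37 0.029, and the authors' values gave 0.019, 0.028, 0.088, 0.020 and 0.026. Array weights gave 0.029 for Pgam1, 0.042 for Pfkfb4, -0.014 for Pfkl, -0.10 for Pfkp and -0.033 for Ldha. The first scan alone gave -0.057 for Adm, -0.10 for Vegfa, -0.12 for Pfkl, -0.011 for Pfkp and -0.11 for Slc16a3; normexp gave -0.0079 for Adm, and the mean over probes -0.31 for Vegfa. Leaving out 1 array, the range was -0.12 to 0.37 for Adm, -0.14 to 0.018 for Gpi, -0.072 to 0.049 for Pgam1, -0.13 to 0.053 for Slc16a1, -0.15 to 0.048 for Pfkfb4, -0.21 to 0.056 for Ankrd37, -0.077 to 0.17 for Vegfa, -0.30 to 0.18 for Pfkl, -0.020 to 0.21 for Pfkp and -0.29 to 0.47 for Slc16a3. Except where the samples differ by construction, the cause of these moves was not tested.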

Other observations

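Beyond the members, the routes into and out of glycolysis can be followed in the same arrays; these genes were picked by role from the pathway lists after their values were seen, and none but Pygl, Pgf and Loxl2, given above, passed the threshold in limma. The pyruvate dehydrogenase complex, which Pdk1 inhibits, differed by -0.04 for Pdha1, 0.10 for Pdhb, 0.21 for Dlat and 0.11 for Dld, and its activating phosphatases by -0.07 for Pdp1 and 0.09 for Pdp2. The mitochondrial pyruvate carrier subunits Mpc1 and Mpc2 differed by -0.03 and 0.03. In the pentose phosphate branch, which makes NADPH and ribose, Pgd differed by -0.18, Tkt by 0.19 and Taldo1 by 0.21, the last with no overlap between groups. Beside Pygl in glycogen handling, its brain-type relative Pygb differed by -0.00, the synthase Gys1 by -0.18 and the branching enzyme Gbe1 by -0.19.

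In the Vegfa family the members ran both ways. Beside the rise of Pgf (0.72), Vegfb differed by -0.72 (95% interval -1.42 to -0.03, limma adjusted p = 0.332) and Vegfc by -0.42 (-0.78 to -0.06, limma adjusted p = 0.268), each with no overlap between groups, and the receptors Flt1 and Kdr by -0.12 and -0.07. On Klf4 replicate 4, marked out of quality range, Vegfb read -2.58, against -1.57, -1.22 and -1.33 on the other Klf4 arrays. Of the collagen-modifying enzymes that low oxygen induces, Loxl2 rose as given above, while the prolyl hydroxylases P4ha1 and P4ha2 differed by 0.17 and -0.37 and the lysyl hydroxylases Plod1 and Plod2 by -0.21 and -0.29.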
